A study of Drosophila melanogaster with 24 samples.

Results

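The genes that encode the proteins of the cytoplasmic ribosome were followed here through their transcription start sites in Drosophila melanogaster embryos. A gene was included when its symbol in the authors' table began with RpL or RpS, which takes in the stalk genes named RpLP, and it was represented by the promoter or 5′ UTR start site with the highest mean level over the libraries. The rule found 85 genes, out of 87 with such a symbol and 10761 genes with a promoter or 5′ UTR start site in the whole table. RpL10Aa and RpL22-like had only intergenic start sites and were left out. Of the 85 genes, 49 are named for the large subunit, 33 for the small subunit and 3 form the P stalk. The choice of genes used symbols and the mean level, so that a high level within a gene was selected for and differences between windows or strains were not.

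Start sites were mapped by csRNA-seq, which sequences capped RNAs of 18 to 65 nt and thereby reads the first bases of RNAs at or shortly after initiation. Embryos of 3 strains were collected at 0-2, 2-4, 4-6 and 6-8 h at 25 degrees C. The strains F3 and M6 are labelled tinmDPE and the strain Cas9 is labelled tinWT, where tin is tinman, a homeobox gene of heart and muscle development, and mDPE in the labels is taken to denote a mutated downstream core promoter element. There was 1 csRNA library for each strain and window, which makes 8 tinmDPE and 4 tinWT libraries. The labels do not say how the lines were made, and since a single strain is tinWT, genotype and strain cannot be told apart. Nothing in the labels says that the libraries of a window came from more than 1 collection per strain, so p-values measure the spread between these libraries. All levels are rlog values, a library-scaled level on a log2 scale in which a difference of 1 is a doubling, and low values are pulled towards the site's mean. The libraries held between 2632187 and 10553406 tags. For 12 of 12 libraries, start sites called in that library alone were highest in its own column. Each value is relative to its library, so a level can be lower because the levels of other sites are higher. In a whole embryo a lower level can also mean fewer cells of a type or less RNA per cell. These readings cannot be told apart.

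Ribosomal protein genes are among the most active genes of growing cells, since every ribosome needs 1 copy of nearly every protein. In flies most of them lack the common initiator of other promoters and start instead at a TCT motif, a polypyrimidine initiator with a C as the first transcribed base, which in Drosophila is served by the TBP-related factor Trf2. Their mRNAs thereby begin with a run of pyrimidines, the 5′ terminal oligopyrimidine tract, through which translation is regulated by growth signals in mammals. The egg is loaded with maternal mRNA and ribosomes, and the embryo's own genome is activated broadly during the first hours of development.

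The start sites of these genes shared a sequence at the first base. The following 30-base stretches of the dm6 genome come from the RefSeq assembly and are read 5′ to 3′ on the strand of the gene. They show the start sites of 4 of the highest genes, of RpS3A, and of RpL7 and RpS5b. RpS3A was called in a test of whether the genotype difference varied over the windows, whose calls were not stable. RpL7 and RpS5b had the largest called falls at 2-4 h against 0-2 h. The capitals mark the called start base and the 3 bases after it.

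RpLP0 (chr3L:22076081-22076110, plus strand): gccgccaacttcactCTTTccgttctgtga
RpLP1 (chr2L:419941-419970, plus strand): ctgcatatcaactgcTCTTtccggtttagg
RpL34b (chr3R:9401204-9401233, minus strand): agggttgccacctttCTTTctagtttcgtc
RpL13A (chr3R:5624464-5624493, plus strand): cgcaacttccgccttCTTTccgtgcggttc
RpS3A (chr4:67189-67218, minus strand): tcaacgtgattcgacCTTTtccggtttatt
RpL7 (chr2L:10201092-10201121, plus strand): acgtttccggtctttCTTTccctttctttt
RpS5b (chr3R:14901531-14901560, minus strand): tttttcatcctctttCTTTccgcgccgaac

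A pyrimidine, a C and TTT stand at or beside the start in all 7. A second set shows start sites that lack this motif within 1 base, chosen to show the ways in which they differ from it.

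RpS12 (chr3L:13023355-13023384, plus strand): catgccgattttgttCTCTttctttccggt
RpS20 (chr3R:20822168-20822197, plus strand): caccctgtaaaacttCTCTtcgttttcaac
RpS21 (chr2L:2856102-2856131, plus strand): agctgtcatttctttCTCTttttcgccttc
RpL36A (chr2L:8042839-8042868, minus strand): tcgctatgtgatttcCTTCttttttcgcct
RpS2 (chr2L:9897503-9897532, minus strand): agcggatggctcggcCATTtcgtttttgtc
RpL37a (chrX:15139330-15139359, minus strand): ttttctttttgctgcGCTTccggagaagtc
RpL27A (chr2L:4458281-4458310, minus strand): ctttcctacaattttAAAGatggtgagtgg
RpS14b (chrX:7935158-7935187, plus strand): gtttttttctcttttAGTTgctgatcgacg

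RpS12, RpS20, RpS21, RpL36A and RpS2 still start at a C after a pyrimidine, with another base in place of one of the Ts. RpL37a, RpL27A and RpS14b start at a purine.

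A TCT start, defined as CTTT after T or C with the C within 1 base of the called start, was present in 73 of the 85 genes, or 85.9%. Among the other 18875 promoter and 5′ UTR start sites it was present in 100, or 0.530%. Among the 1987 of these with a mean level above 8, which are comparable in level to most ribosomal protein genes, it was present in 18, or 0.906%. The count was 71 with the C exactly at the start, 78 with the C within 5 bases and 66 when a pair of pyrimidines was required on each side of CTTT. The start base was C in 79 of the 85 genes, or 92.9%, and in 5.07% of all promoter and 5′ UTR start sites. The 21 bases centred on the start had a median of 80.95% pyrimidines, against 52.38% over all promoter and 5′ UTR start sites.

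Other promoter elements were searched for as letters. The initiator TCAGT or TCATT with its A within 1 base of the start was found in 0 of 85 genes, against 16.4% of promoter and 5′ UTR sites. TATAAA or TATATA beginning at -33 to -28 was found in 1 gene, RpL3, and in 4.75% of those sites. In the 150 bases before the start, on either strand, TATCGATA, the palindrome bound by Dref, was found in 25 genes, or 29.4%, against 6.01% of promoter and 5′ UTR sites. GGTCACAC, the core of the motif bound by M1BP, was found in 12 genes, or 14.1%, against 4.48% of those sites. Among the other sites with a mean above 8 the share was 11.1%. CACACT, which can overlap that core, was found in 28 genes, or 32.9%, against 13.9% of the other promoter and 5′ UTR sites and 20.1% of those with a mean above 8. A match of letters is a description of the window and not a binding site.

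All 85 sites lay in the promoter class and on the gene's own strand, at a median of 6 bases from the annotated start, and 83 of them within 25 bases. The authors' caller reported 51 of the 85 sites in every library, or 60.0%, compared with 45.1% of the other promoter and 5′ UTR sites with a mean above 8, 12.95% of all promoter and 5′ UTR sites and 5.65% of all start sites. Of these 51 sites, 41 had the same position in every library, a share of 80.4%, against 67.3% for the other sites with a mean above 8 and 46.1% for all promoter and 5′ UTR sites called in every library. The genes were spread over the arms, with 14 on X, 17 on 2L, 20 on 2R, 14 on 3L, 19 on 3R and 1, RpS3A, on the small chromosome 4. A further promoter row existed for 24 of the genes.

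The level of the genes was high in every library, and they differed among themselves by several orders of magnitude. The median of the 85 means was 9.67. The other 10676 genes, each taken at its own highest promoter or 5′ UTR start site, had a median of 5.17. These levels are a description, since the rule used the mean. Among the 1000 highest start sites, 50 were ribosomal protein genes, and among the 100 highest there were 14. The middle of the distribution lay between 8.86 and 11.17, the lower and upper quartiles.

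**Figure D1:**
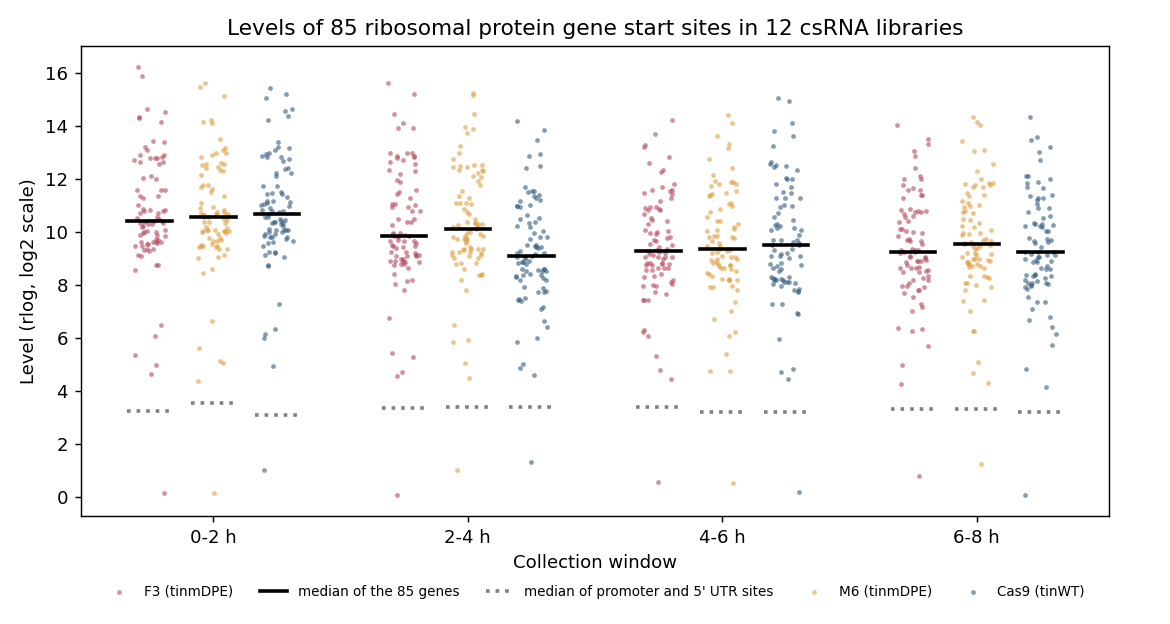
Level (rlog, log2 scale) of each of the 85 genes in each csRNA library, by collection window, with F3 and M6 (tinmDPE) left of Cas9 (tinWT). Black bars mark the median of the genes, which lay between 10.40 and 10.65 at 0-2 h and between 9.23 and 9.55 at 6-8 h, and dotted bars the median of promoter and 5′ UTR start sites, which lay between 3.09 and 3.52 in all libraries.

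The P stalk, the lateral arm of the large subunit that recruits translation factors, supplied the highest levels. RpLP0, which encodes the base of the stalk (chr3L:22076021-22076171), had the rank of 6 among all start sites and a mean of 14.85. At 0-2 h its levels in F3, M6 and Cas9 were 16.20, 15.59 and 15.42. The same strains stood at 15.59, 15.16 and 14.16 at 2-4 h. They reached 14.20, 14.40 and 14.94 at 4-6 h, with 14.04, 14.15 and 14.32 in the 6-8 h libraries. RpLP0 was thus highest in all 3 strains at 0-2 h, and the 2-4 h library of Cas9 already stood at the level of the later windows. RpLP1 (chr2L:419881-420031), which encodes a stalk protein that binds to P0 as a dimer with P2, followed with the rank of 7 and a mean of 14.55. RpLP2 had a lower mean of 10.53.

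RpL39 and RpL41 encode very small proteins of the large subunit. RpL39 had a mean of 14.04 although the authors' caller reported it in 7 libraries. RpL34b averaged 13.62 and RpL13A averaged 13.46, which completes the 5 highest genes. The 5 lowest were RpL37b with a mean of 0.58 and a call in 1 library, RpL7-like with 4.48, RpL24-like with 4.94, RpS15Ab with 5.43 and RpLP0-like with 5.95. All 5 are the lower member of a pair of related genes. RpL7-like, RpL24-like and RpLP0-like are named for their likeness to ribosomal proteins, and their relatives in yeast are ribosome assembly factors.

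Over the course most ribosomal protein genes fell. At 6-8 h against 0-2 h, 64 of the 85 genes passed an adjusted p of 0.05 (limma over all 45839 start sites, strain as block), all of them lower, where 7.5% of all start sites were called lower. Among the 1987 other promoter and 5′ UTR sites with a mean above 8, 323 were called lower and 825 higher. The median change of the 85 genes was -1.31, against -0.08 over all start sites and 0.48 over the 1987 other promoter and 5′ UTR sites with a mean above 8. On the linear scale the median gene was 2.49-fold lower at 6-8 h than at 0-2 h. Per strain the median change was -1.41 in F3, -1.01 in M6 and -1.45 in Cas9, and 78 genes were lower in all 3 strains, as were 40.25% of all start sites. In 76 genes all 3 libraries of 6-8 h lay below all 3 of 0-2 h, where 32.4% of all start sites did so. The 0-2 h window had the highest mean in 82 genes. The summed linear level of the 85 genes, as a share of the sum over all start sites, lay between 3.20% and 4.57% at 6-8 h and between 10.2% and 11.97% at 0-2 h.

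**Figure D2:**
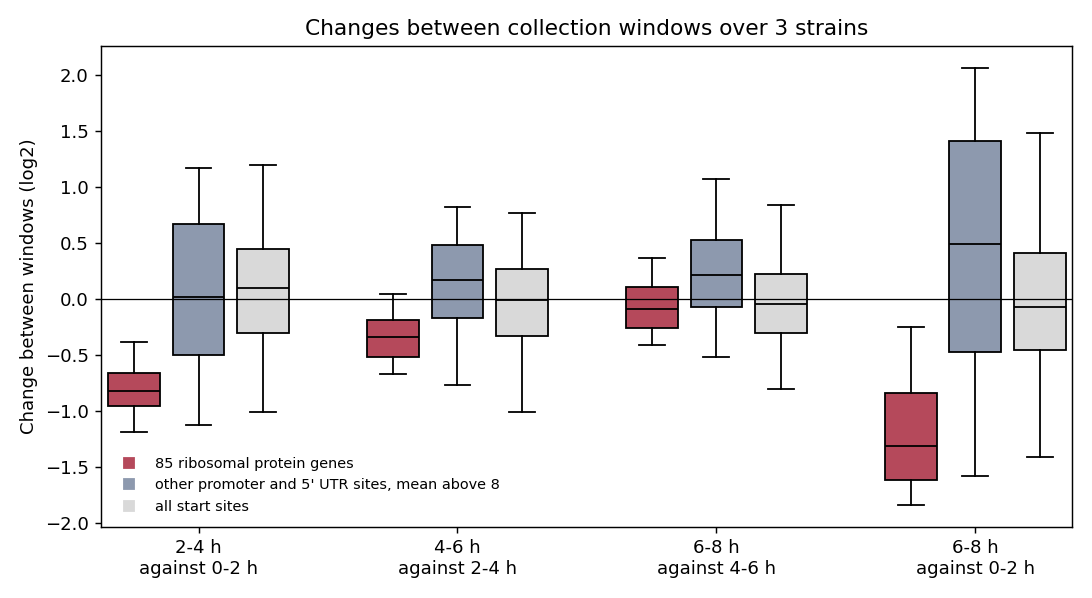
Change in level (log2) between windows over the 3 strains for the 85 ribosomal protein genes, the other promoter and 5′ UTR sites with a mean above 8, and all start sites. Boxes span the quartiles with the median inside and whiskers run from the 5th to the 95th percentile. At 6-8 h against 0-2 h the upper quartile of the ribosomal protein genes was -0.85, below the lower quartile of -0.48 of the other high sites.

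The count of 64 depended on the libraries more than the size of the change did. It lay between 42 and 74 when any 1 of the 12 libraries was left out, with 42 without the 6-8 h library of F3. Without all libraries of F3 it was 0, and without those of M6 it was 26. The median change lay between -1.45 and -1.15 in all of these fits. Any change over the 4 windows was called in 57 genes, where 19.9% of all start sites and 59.6% of the other promoter and 5′ UTR sites with a mean above 8 were called. This count was 0 without F3, 4 without M6 and 29 without Cas9. Left out singly, the 0-2 h library of F3 gave 32 and the 4-6 h library of M6 gave 34.

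The largest fall was that of RpS5b (chr3R:14901470-14901620), a small subunit gene that is known in flies for its expression in the female germ line. At 0-2 h it stood at 8.73 in F3, 8.42 in M6 and 9.05 in Cas9. In the same strains the levels were 7.79, 7.81 and 6.39 at 2-4 h. At 4-6 h they were 6.30, 6.70 and 6.92, with 6.27, 6.99 and 6.40 in the 6-8 h libraries. The levels at 6-8 h and at 0-2 h did not overlap, and the change of -2.18 ± 0.37 (SE) had an adjusted p of 0.00073 in limma. RpL17, which encodes a protein near the exit of the peptide tunnel (chrX:6744141-6744291), stood at 7.26, 7.78 and 6.76 at 6-8 h, against 9.46, 9.35 and 9.24 at 0-2 h. It changed by -2.08 ± 0.30 and was lower in each strain by 1.57 or more.

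RpL38, a gene of the large subunit whose loss in mice alters the translation of Hox mRNAs, fell by 2.06 ± 0.32. Its levels were 10.77, 11.39 and 10.21 at 6-8 h, against 12.90, 12.52 and 13.14 at 0-2 h. RpL23A, another protein of the tunnel exit, fell by 1.88 ± 0.28 and RpL41 by 1.84 ± 0.25. RpS5b, RpL17, RpL38 and RpL23A were also the 4 genes with the widest range of window means.

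Grouped by symbol, 36 of the 49 large subunit genes, 25 of the 33 small subunit genes and 3 of the 3 P stalk genes were called lower. Their medians were -1.19, -1.41 and -1.80. The large subunit group includes RpL7-like, RpL24-like and RpLP0-like, which were not called. The P stalk genes RpLP1 and RpLP2 fell by 1.82 ± 0.36 and 1.80 ± 0.28, and RpLP0 fell by 1.56 ± 0.29. Among the 21 genes that were not called the changes ran up to 0.45. RpS12, which in Drosophila takes part in the elimination of ribosome-deficient cells, changed by 0.05 ± 0.27, with 10.40, 10.32 and 10.88 at 6-8 h against 10.27, 10.07 and 11.11 at 0-2 h. RpL3, a protein of the peptidyl transferase centre, changed by -0.29 ± 0.27, and RpL27A by -0.28 in the same comparison. Their groups overlapped.

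Genes with a TCT start and genes without it are given as counts. Of the 73 with it, 58 were called lower, with a median of -1.31. Of the 12 without it, 6 were called lower, with a median of -1.03, and the difference between these sets was not tested. Of the 25 genes with TATCGATA, 17 were called lower, with a median of -1.38, and of the 60 without it 47, with a median of -1.28.

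**Figure D3:**
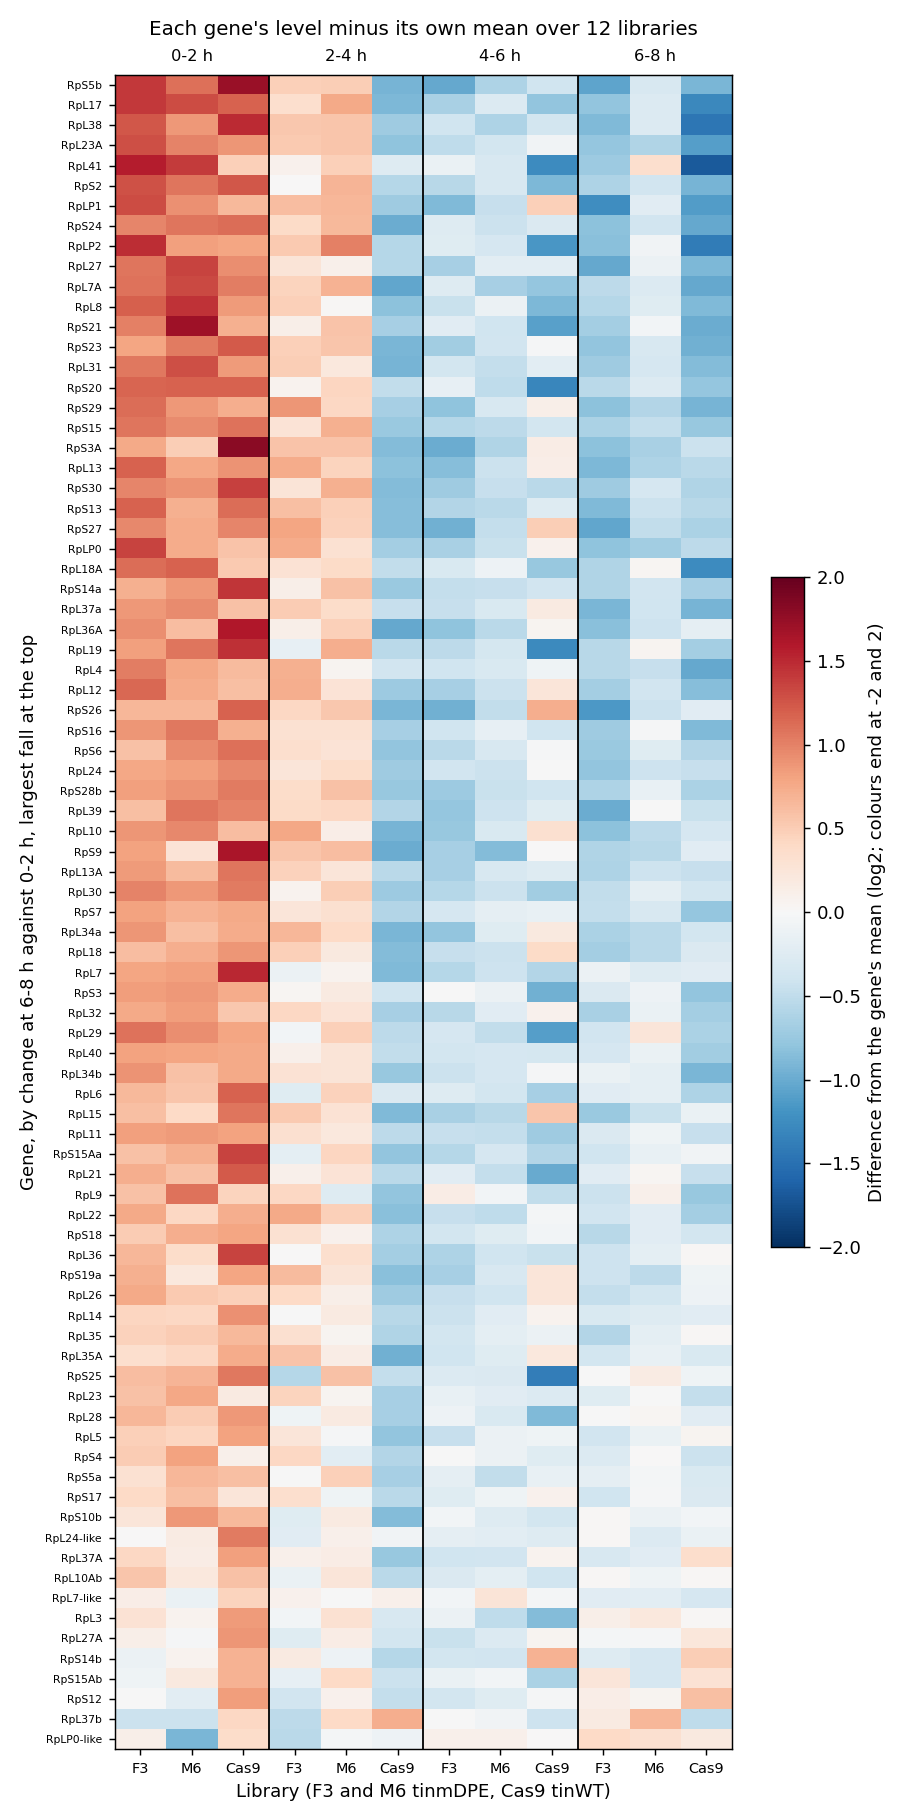
Level of each of 83 genes minus its own mean (log2) in each library, with windows in time order and, within a window, F3 and M6 (tinmDPE) left of Cas9 (tinWT). Genes run from the largest fall at 6-8 h against 0-2 h, RpS5b with -2.18, to the highest value, RpLP0-like with 0.45, and the 2-4 h column of Cas9 is low for nearly all genes.

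The first step differed in size between the strains. At 2-4 h against 0-2 h, 20 genes were called, all lower, where 2.44% of all start sites were called lower. Among the 1987 other promoter and 5′ UTR sites with a mean above 8, 147 were called lower and 245 higher. The median change was -0.82, against 0.09 over all start sites, and 84 of the 85 genes had a negative value. In 67 genes all 3 strains were lower, as in 26.65% of all start sites, and in 52 genes the 3 libraries of 2-4 h lay below the 3 of 0-2 h, where 20.4% of all start sites did so. The medians were -0.49 in F3, -0.37 in M6 and -1.55 in Cas9, so the pooled median rested on Cas9 most.

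RpS5b had the largest called fall of this step, -1.40 ± 0.37, made up of -0.94 in F3, -0.61 in M6 and -2.66 in Cas9. RpL7, which encodes a large subunit protein, was at 8.18, 8.37 and 7.42 at 2-4 h in F3, M6 and Cas9, against 9.09, 9.12 and 9.81 at 0-2 h. It fell by 1.35 ± 0.30 with an adjusted p of 0.016 in limma. RpL8, a protein of the peptidyl transferase region, fell by 1.27 ± 0.25, and RpL17 and RpL27 fell by 1.23 ± 0.30 and 1.19 ± 0.27. The change of RpL8 was -0.72 in F3, -1.42 in M6 and -1.68 in Cas9. The single positive value belonged to RpL37b, at 0.36 ± 0.42, a gene near the floor of the assay.

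The 20 calls of this step were not stable. The count was 8 without the strain block and 31 with each library centred on its median, and it was 0 without the 0-2 h library of F3, 1 without that of Cas9, 2 without the 2-4 h library of F3 and 1 without the 2-4 h library of Cas9. Without the 2-4 h library of Cas9 the median change was -0.46. Leaving out a 4-6 h or 6-8 h library of F3 gave 8 in each case, the 4-6 h library of M6 gave 4, and the 6-8 h libraries of M6 and Cas9 gave 9 each.

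At 4-6 h against 2-4 h, 0 genes were called by limma, where 2.11% of all start sites were called in either direction. An unadjusted p under 0.05 was found for 13 of the 85 genes and for 6483 of the 45839 start sites. The median change was -0.34, with -0.70 in F3, -0.70 in M6 and 0.39 in Cas9. The median of this step was thus further below 0 than that of the first step in F3 and M6, and it was positive in Cas9. In Cas9 64 of the 85 genes had a positive value in this step, whereas 80 genes in M6 and 78 in F3 had a negative one. Without the 2-4 h library of Cas9, 9 genes were called and the median was -0.67, against -0.46 for the first step. The lowest value was that of RpLP2, at -0.90 ± 0.28. The highest were those of RpLP0-like, at 0.30 ± 0.34, and RpS14b, at 0.15 ± 0.34.

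At 6-8 h against 4-6 h, 0 genes were called by limma, where 0.513% of all start sites were called. An unadjusted p under 0.05 was found for 2 of the 85 genes and for 5257 of the 45839 start sites. The median change was -0.09, and the strains had medians of -0.05 in F3, 0.11 in M6 and -0.28 in Cas9. RpS25 and RpL3 had the highest values, 0.67 ± 0.31 and 0.62 ± 0.27. RpLP1 and RpL37a had the lowest, -0.58 ± 0.36 and -0.55 ± 0.28.

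Genes that mark the age of an embryo moved over the same windows. The maternal genes bcd, nos, osk, exu and BicC were all called lower at 6-8 h against 0-2 h, where 7.5% of all start sites were. The median change of these genes was -4.88. Their summed level (log2 of the summed linear values) lay between 9.91 and 10.39 at 0-2 h, between 7.20 and 8.60 at 2-4 h, between 6.05 and 6.52 at 4-6 h and between 5.26 and 6.63 at 6-8 h. Of the early zygotic genes slam, Sry-alpha, nullo, bnk, ftz and sna, 2 of 6 were called higher at 2-4 h against 0-2 h, where 4.22% of all start sites were, and 5 of 6 lower at 4-6 h against 2-4 h, where 1.72% were. Their summed level lay between 9.31 and 9.87 at 0-2 h and between 10.44 and 11.17 at 2-4 h. Of the later genes Mef2, how, elav, Act57B and Mhc, how and elav were called higher at 6-8 h against 0-2 h, where 9.88% of all start sites were. Mef2, Act57B and Mhc were not called, at 0.08, -0.33 and -1.74. No marker had a value at or below 0 in any library, the lowest being nullo with 0.73 in the 6-8 h library of M6. The part of embryo age in the fall of the ribosomal protein genes was not tested beyond the windows, and the part of maternal RNA was not tested.

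Several ribosomal proteins of flies are encoded by a pair of genes, and the members of a pair differed in level. The -like genes are set here beside the gene they are named for and need not encode the same protein. RpL34b averaged 13.62 and RpL34a 8.43, RpS14a averaged 8.64 and RpS14b 6.58, and RpS5a averaged 9.24 and RpS5b 7.31. RpS15Aa averaged 9.30 against 5.43 for RpS15Ab, RpL37a 9.96 against 0.58 for RpL37b, RpL7 8.30 against 4.48 for RpL7-like, and RpL24 7.79 against 4.94 for RpL24-like. These are levels of start sites on the log2 scale, which need no division by gene length.

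The start regions of the pairs are alike in part. RpS5a, RpL24 and RpS14a share the TCT start with the higher genes.

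RpS5a (chrX:17148246-17148275, minus strand): ctgccgtaacatgttCTTTttcaggcgttt
RpL24 (chr2L:13395071-13395100, minus strand): cttccgttttcttttCTTTtcgtgtttcta
RpS14a (chrX:7933732-7933761, plus strand): agctacgtcaaccttCTTTtttgatatccg
RpL24-like (chr3R:11431554-11431583, minus strand): tacattttcatatttCTTCttcttcagcag
RpL7-like (chr2L:12056337-12056366, plus strand): cgcgcccacctctatCCTTtttagttattg

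RpL24-like begins with CTTC in place of CTTT, and RpL7-like has its C 1 base after the called start. RpS14b, shown above, starts at an A at the end of a pyrimidine run.

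The lower genes of the 8 pairs, which include the -like genes, had a median change of -0.33 at 6-8 h against 0-2 h. Over all 85 genes it was -1.31, a difference that was not tested. Of the 8 lower genes 2, RpS5b and RpL34a, were called lower, where 7.5% of all start sites were. RpL34a fell by 1.26 ± 0.37 and its partner RpL34b by 1.17 ± 0.25. RpS5b fell by 2.18 while RpS5a, the copy used throughout the body, changed by -0.70 ± 0.28 and was not called. The gap between RpS5a and RpS5b was therefore 2.51 at 6-8 h in the window means of 9.06 and 6.55, against 1.02 at 0-2 h in the means of 9.76 and 8.73, and the difference between these gaps was not tested.

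RpL7, RpL24, RpL37a, RpS14a, RpS15Aa and RpLP0 were called lower, with changes between -1.56 and -1.09. RpL7-like changed by -0.41 ± 0.31, RpL24-like by -0.53 ± 0.32, RpS15Ab by -0.21 ± 0.35, RpS14b by -0.25 ± 0.34, RpL37b by 0.27 ± 0.42 and RpLP0-like by 0.45 ± 0.34, and 0 of these 6 were called. The rlog transform shrinks the changes of low sites, which covers RpL37b most of all. RpS14a and RpS14b are tandem copies on X. The bases printed from their called starts differ, and whether any reads of their start regions matched both copies was not examined. Their separate values carry that uncertainty. A second promoter row of RpS14b lay 0.42 below the one used. RpL10Ab, RpS10b, RpS19a and RpS28b come from families in which the partner was not a member with a promoter start. Of these, RpS28b fell by 1.38 ± 0.27, and RpL10Ab, RpS10b and RpS19a changed by -0.46 ± 0.22, -0.64 ± 0.26 and -0.91 ± 0.33 and were not called. RpL22, whose relative RpL22-like had only intergenic start sites, also had no partner among the members. In F3, M6 and Cas9 it stood at 11.64, 11.79 and 11.34 at 6-8 h, against 12.78, 12.44 and 12.74 at 0-2 h.

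**Figure D4:**
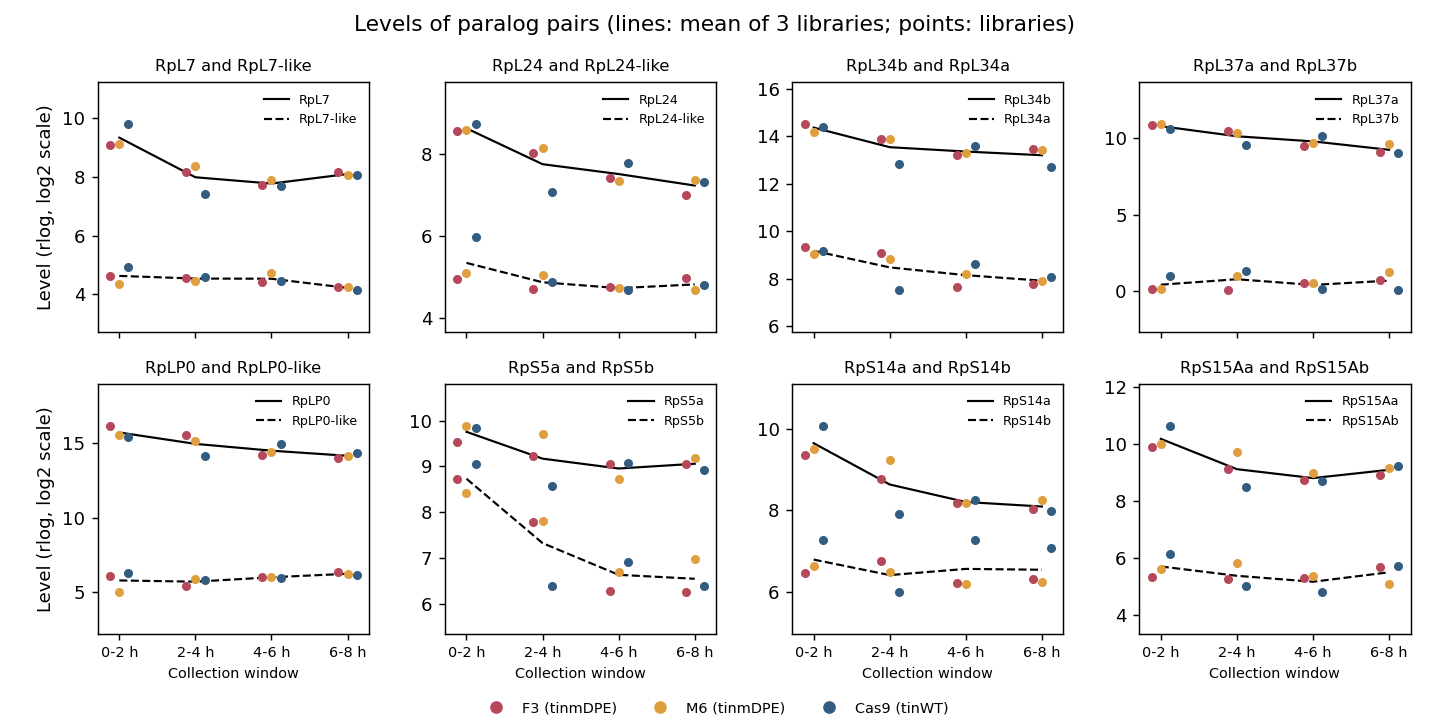
Levels (rlog, log2 scale) of 8 pairs of related genes by window, with points for the libraries of F3 and M6 (tinmDPE) and Cas9 (tinWT) and lines for the mean of the 3. Each panel has its own vertical axis. RpS5b, dashed, dropped to a mean of 6.55 at 6-8 h, against 8.73 at 0-2 h, while RpLP0-like and RpL37b stayed within 0.45 of their 0-2 h mean at 6-8 h.

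Between tinmDPE and tinWT 1 gene was called over the whole course. RpL41 was higher in tinmDPE by 1.02 ± 0.19 with an adjusted p of 0.025 in limma, where 0.175% of all start sites were called higher. Its levels in F3 and M6 against Cas9 were 14.30 and 14.13 against 13.21 at 0-2 h, 12.82 and 13.21 against 12.48 at 2-4 h, 12.60 and 12.41 against 11.47 at 4-6 h, and 11.998 and 13.07 against 11.05 at 6-8 h. Every one of the 8 tinmDPE libraries was above the tinWT library of its window. When any 1 of the 12 libraries was left out, the difference lay between 0.86 and 1.18 and RpL41 was not called in 11 of the 12 fits, the exception being the fit without the 6-8 h library of M6. No gene of the set was called without F3, without M6 or with a variance prior without a trend, and 5 genes were called when strain was fitted as a correlated replicate block, whose estimated correlation was -0.0896.

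The next largest positive difference was that of RpLP2, at 0.88 ± 0.20, also higher in 8 of 8 matched comparisons, with an adjusted p of 0.092 in limma. The lowest value was that of RpS14b, at -0.49 ± 0.25. The median difference of the 85 genes was 0.21, against 0.00 over all start sites. An unadjusted p under 0.05 was reached by 15 of the genes and by 4456 of the 45839 start sites. Without the 2-4 h library of Cas9 the median was -0.04. Between F3 and M6, both tinmDPE, limma called 0 genes, where 0.00218% of all start sites were called. There the median difference was -0.08, with 1 gene at an unadjusted p under 0.05, a count for which no share of all start sites is given.

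Within single windows, calls between the genotypes were made at 2-4 h alone. There, 23 genes were called, all higher in tinmDPE, where 0.676% of all start sites were called higher. The median difference at 2-4 h was 0.92, against -0.05 over all start sites and -0.15 over the other promoter and 5′ UTR sites with a mean above 8. In 80 of the 85 genes both F3 and M6 stood above Cas9, as in 19.7% of all start sites, and in 2 genes both stood below it, as in 54.1%. The 23 calls comprised 13 genes of the large subunit and 10 of the small subunit, and all 23 had a TCT start.

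Large differences among these were those of RpL7A, at 1.61 ± 0.26, and RpS9, at 1.57 ± 0.24. The tinWT group of this window is 1 library, which is assumed to vary like the other groups. The count was 0 when start sites below the 25th percentile of level were left out, 9 without a trend in the variance prior and between 10 and 23 with 1 library left out. It was 10 without the 2-4 h library of F3, 13 without that of M6, 10 without either 4-6 h library of tinmDPE and 15 without either 0-2 h library of tinmDPE.

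In the other windows 0 genes were called by limma between the genotypes. At 0-2 h the median difference was -0.16, with 16 genes at an unadjusted p under 0.05 and 0.301% of all start sites called. At 4-6 h the median was -0.19, with 22 genes at an unadjusted p under 0.05 and 0.777% of all start sites called. At 6-8 h the median was 0.17, with 8 genes at an unadjusted p under 0.05 and 0.367% of all start sites called. These shares are by adjusted p. They are not the background of the counts at an unadjusted p, for which no share is given. Those counts are therefore not read as a result about these genes. Both tinmDPE strains stood above Cas9 in 28 genes at 0-2 h and below it in 46, where 17.7% and 52.6% of all start sites did so. The counts were 32 above and 48 below at 4-6 h, where the shares of all start sites were 25.1% and 45.1%. They were 43 above and 24 below at 6-8 h, with shares of 23% and 48.7%.

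**Figure D5:**
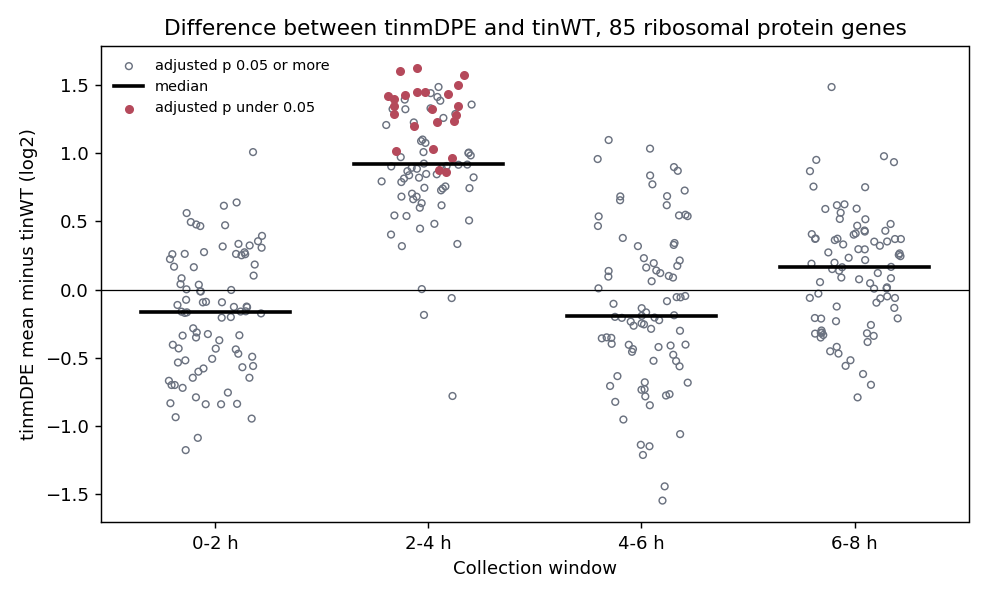
Difference between the tinmDPE mean (F3 and M6) and the tinWT library (Cas9) for each of the 85 genes (log2), by window. Filled points passed an adjusted p of 0.05 and bars mark the median, which was 0.92 at 2-4 h and between -0.19 and 0.17 in the other windows.

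A test of whether the genotype difference varied over the windows called 6 genes, where 4.95% of all start sites were called. An unadjusted p under 0.05 was reached by 52 of the 85 genes. No share of all start sites is given for this count, so it is not read as a result about these genes. The 6 called genes included RpS3A and RpS9 of the small subunit and RpL15, RpL18 and RpL37A of the large subunit. RpS3A stood at 12.98 in both F3 and M6 at 2-4 h, against 11.55 in Cas9, and at 13.17 and 12.90 at 0-2 h, against 14.22 in Cas9. The count of 6 was 0 with libraries centred on their medians, without a trend in the variance prior and without sites under the 25th percentile, and between 1 and 8 with 1 library left out. It was 1 without the 2-4 h or the 4-6 h library of F3 or the 4-6 h library of M6, 2 without the 6-8 h library of F3 or of M6 and 3 without the 2-4 h library of M6.

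The age markers of the 2-4 h libraries are given beside this difference. The summed level of the 5 maternal genes was 8.50 in F3 and 8.60 in M6, against 7.20 in Cas9, and the 5 differences were all positive, with a median of 1.28, though 0 of the 5 genes were called by limma and 3 had an unadjusted p under 0.05. Of the 6 early zygotic genes 5 had a negative difference, as had 62.1% of all start sites, and 1 of them, sna, was called. The course of sna differed from that of the other early zygotic genes. Of the 6 it alone was not called lower at 4-6 h against 2-4 h, and it was called higher at 6-8 h against 0-2 h. Its call at 2-4 h is therefore not read as a mark of embryo age. Of the 5 later genes 0 were called, also with 0 at an unadjusted p under 0.05. Their differences ran between -1.09 for elav and 1.19 for Mhc. The share of the ribosomal protein genes in the summed level was 8.88% in F3 and 8.66% in M6 at 2-4 h, against 4.07% in Cas9. The Cas9 library of this window also held 4228 start sites called in no other library, against 3279 in F3 and 743 in M6 of the same window and 436 to 2586 in the libraries of the other windows. The part of a difference in age between the 2-4 h collections in the genotype difference was not tested.

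Genes with related roles were examined in lists, chosen with earlier results of these data known. The ribosomal proteins whose symbols escape the rule, sta (RpSA) and Rack1 of the small subunit, were called lower at 6-8 h against 0-2 h, with -1.15 ± 0.33 and -1.07 ± 0.24. Of 6 elongation factor genes 4 were called lower, where 7.5% of all start sites were. These genes were eEF1alpha1 with -1.30, eEF1beta with -1.38, eEF1gamma with -1.11 and eEF2 with -0.99. The tissue-restricted eEF1alpha2 had 0.84 ± 0.32 and was not called. eEF2 and eEF1alpha2 had a TCT start.

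Of 13 ribosome biogenesis genes 0 were called by limma, where 17.37% of all start sites were called in either direction. An unadjusted p under 0.05 was found for 3 of them and for 14028 of the 45839 start sites. The median of the list was -0.34, with 10 negative values. Fib (fibrillarin), which modifies ribosomal RNA, had 0.29 ± 0.23, and Nop56 had -0.43 ± 0.28. The difference between this list and the ribosomal protein genes was not tested. Of 10 genes for regulators of ribosomal protein genes or of growth, Trf2 rose by 1.26 ± 0.24 and Thor, an inhibitor of cap-dependent translation, by 1.33 ± 0.34. The start sites of larp, whose product binds the mRNAs of ribosomal proteins in mammals, gave values of both signs. The highest, with a mean of 9.63, rose by 1.77 ± 0.47, while a second with a mean of 9.56 and a TCT start had -0.66 ± 0.24 and was not called. The highest start site of Dref, with a mean of 7.44, fell by 1.61 ± 0.35, and a second with a mean of 6.61 had -0.07 ± 0.38. M1BP had 0.31 ± 0.29 and Tbp had -0.64 ± 0.32, and neither was called.

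The 100 other start sites with a TCT start had a median change of -0.40 at 6-8 h against 0-2 h. Of these 28 were called lower and 9 higher, where 7.5% and 9.88% of all start sites were. Among the 18 with a mean above 8 there were 8 called lower, including genes of translation such as eEF2, eIF3i with -1.24, eIF3b with -1.40 and Nacalpha with -1.16, and 3 called higher, which were Uhg5 with 1.498, CG6752 with 1.16 and CG11414 with 0.80. A TCT start was thus also found at start sites that rose.

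The ribosomal protein genes followed each other closely over the 12 libraries. The correlation of a gene with the mean of the other 84 had a median of 0.90 and exceeded 0.8 in 69 genes. These libraries share their windows, so the values describe the common course. The lowest correlations were those of RpLP0-like at -0.33, RpL37b at -0.21, RpS12 at 0.29 and RpS14b at 0.38. Outside the set, the 5 promoter start sites most like the mean of the genes over the 12 libraries were those of mEFTu1, a mitochondrial elongation factor, with a correlation of 0.99, BicC and CG31195 with 0.98 each, Mitf with 0.98 and CG14516 with 0.98. A correlation does not measure the size of a change. This BicC start site, another than that of the maternal marker, changed by -5.03 ± 0.58 at 6-8 h against 0-2 h. The median change of the 85 genes was -1.31.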

How the data were processed

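Embryo RNA was size-selected, cap-selected and sequenced per the labels' protocols. The submitters' processing notes name STAR 2.7.10a, HOMER, edgeR and the build dm6. Per the file headers, the authors merged start sites by strand with HOMER and deposited rlog values, a log2 scale, over the 12 csRNA libraries, and the authors' tables also give a score and a called position per library. The caller's thresholds are not given in the sources used here, and the input libraries were not analysed here. Tag counts per site were not used, so shrinkage of low sites affects all changes, and no interval for counting error can be given.

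Models were fitted in limma 3.58.1 (R 4.3.3; lmFit, eBayes with trend) to all 45839 sites with Benjamini-Hochberg adjustment and a threshold of 0.05. Window contrasts had strain as block, the genotype contrast had window as covariate, and differences inside a window, like the interaction, were contrasts of group means. Libraries of a strain are paired, being 1 line. Their deviations from the window means correlated by a mean of 0.0643 within F3, 0.0669 within M6 and 0.154 within Cas9, against -0.0475 across strains. The fits were also run on simulated data with a known shift and independent noise. That run checks the code. It held no deviation shared by a whole library, so it says nothing of the calls made here. The called position was the midpoint most often called, and sequence came from the RefSeq dm6 assembly, with all 85 genes matched by gene ID.

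The text names the 5 highest and 5 lowest genes, the 5 largest called falls and rises of each contrast that agreed in all strains (or, with fewer than 2, the 2 largest values), the paralogs, the P stalk and the 4 widest ranges. The members and lists were chosen with earlier results of these data known. The gene pes, first listed under ribosome biogenesis, is peste and was dropped after its values were seen. RpL8 in M6 and the other genes named outside the rule were chosen after their values were seen. The single values of 2 member genes are not reported here, though counts and medians include them. Alternatives were other scalings, filters and priors, fits with and without blocks, and leaving out libraries or strains. Motifs and lists were read in Python 3.11.15.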

Additional observations from a re-analysis of the deposited data

Results flagged for a closer look

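The genotype difference varied over the windows by limma's interaction test in 6 genes, a share of 7.06%, where 4.95% of all start sites were called. The count was 0 under 3 of the alternatives, namely libraries centred on their medians, no trend in the variance prior, and no sites under the 25th percentile. RpS3A had an adjusted p of 0.022, RpL15 of 0.028, RpS9 and RpL18 of 0.034 each, and RpL37A of 0.040. In each of these 5 genes the difference of tinmDPE from tinWT was positive at 2-4 h and negative in the other windows. Over the 4 windows in time order the differences were -1.09, 1.57, -0.77 and -0.35 for RpS9, and -0.56, 1.29, -1.15 and -0.47 for RpL15. The tinWT group has 1 library per window, and the cause was not tested.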

How the results depend on the processing

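The direction of the median change at 6-8 h against 0-2 h and at 2-4 h against 0-2 h was negative under every alternative run, while counts of called genes moved. Quantile normalization gave medians of -0.30 at 6-8 h against 4-6 h, and for tinmDPE against tinWT -0.043 at 0-2 h, 0.98 at 2-4 h and -0.060 at 4-6 h, with 1 gene called at 4-6 h. Centring libraries on their medians called 31 genes at 2-4 h against 0-2 h and 0 in the interaction, with genotype medians of -0.28 at 0-2 h and 1.08 at 2-4 h. Leaving out start sites under the 25th percentile called 0 genes between genotypes at 2-4 h and 0 in the interaction. No trend in the variance prior called 12 genes at 2-4 h against 0-2 h, 9 between genotypes at 2-4 h, and 0 over the course and in the interaction. Without the replicate block 8 genes were called at 2-4 h against 0-2 h, and strain as a correlated replicate block called 5 between genotypes. The block changed no other count by over 1.5 times. Averaging all promoter rows of a gene gave a genotype median of 0.79 at 2-4 h, and omitting the lower paralogs gave -0.13 at 0-2 h and 0.97 at 2-4 h.

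With a library or a strain left out, the genes called lay between 0 and 22 at 2-4 h against 0-2 h, 0 and 9 at 4-6 h against 2-4 h, 0 and 74 at 6-8 h against 0-2 h, 0 and 71 over any window, 0 and 1 between genotypes, 0 and 1 between genotypes at 0-2 h, 10 and 23 at 2-4 h, and 1 and 8 in the interaction. At 0-2 h the genotype median ranged between -0.18 and -0.16, at 2-4 h between 0.92 and 1.01, and at 4-6 h between -0.21 and -0.086. A median within a window uses the libraries of that window alone, so these ranges come from leaving out its F3 or M6 library. They cannot cover its single Cas9 library, without which the window had no genotype value. The median of F3 against M6 ranged between -0.21 and 0.031. With all of F3 or M6 left out, no test within a window was possible, and without Cas9 no genotype value.

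Of 877 recomputed values of single genes 11 changed sign, all of them of genes not called. With libraries or strains left out, RpL37b at 6-8 h against 0-2 h lay between -0.15 and 0.86, and RpS15Ab between -0.47 and 0.093. RpS14b at 4-6 h against 2-4 h lay between -0.41 and 0.50, and RpLP1 at 6-8 h against 4-6 h between -0.98 and 0.050. Quantile normalization gave 0.018 for RpS15Ab and 0.041 for RpS14b at 6-8 h against 0-2 h. The causes were not tested. Depth is known as total tags alone, so counting error per site is not given.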
